A study of Arabidopsis thaliana with 12 samples.

Results

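The early chilling response of Arabidopsis thaliana was taken here as the difference between seedlings held for 3 h at 4 °C and unchilled seedlings, averaged over a pair of genotypes. It rests on 8 of the 12 ATH1 arrays of the study, 4 at 3 h and 4 at 0 h, and covers all 22746 probe sets that are not controls. The arrays at 3 h comprise 2 labelled wild type (WT) and 2 labelled rdm4, and those at 0 h likewise comprise 2 labelled WT and 2 labelled rdm4. Both genotypes had the same weight, so that the mean at each time is the same whichever arrays of that time carry which genotype label. The genotypes are written as labels throughout, because the 2 responses at 3 h resemble each other more over all probe sets when the 3 h labels are exchanged, although not for every gene. Whether labels were exchanged or the genotypes respond differently was not tested.

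The plants were 2 weeks old and had grown on plates in a cycle of 16 h light at 23 °C and 8 h dark at 18 °C. RNA came from the leaves of at least 30 pooled seedlings a plate. The rdm4 plants carry a mutation in RDM4, which encodes a protein associated with RNA polymerase II. No transgene or further treatment is shared by the groups per their titles, but labels conflict: the accession is C24 in titles but Col elsewhere, 35S::RDM4 stands as genotype for the mutants, and for replicate 2 the descriptions and titles give different treatments. Unchilled plants were collected at 0 h only. A response to 3 h of chilling therefore cannot be told apart from one to time of day. In leaf RNA, a change in cell composition and a change in RNA per cell cannot be told apart either.

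Chilling is sensed within minutes in plants and starts a transcriptional cascade. Early transcription factors of the CBF (DREB1) type and their relatives are induced first, and cold-regulated (COR) genes follow, many of which encode hydrophilic proteins that protect membranes and proteins against freezing and water loss. Growth genes are commonly lowered in the same period, and sugar, flavonoid and redox metabolism are adjusted. The CBF genes, RD29A, CCA1, LHY and RDM4 itself were not analysed here, because the platform annotation used pairs no probe set with them alone. Neither were KIN1 and KIN2, which share a probe set. Below, a gene counts as measured if the annotation pairs a probe set with it alone. A gene that is not measured may still be on the array.

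At 3 h, 4329 probe sets were higher than at 0 h and 5339 were lower at an adjusted p under 0.05 (limma, Benjamini-Hochberg adjustment over all probe sets), which is 19.0% and 23.5% of those tested. Most of these differences were small: of 9668 in all (42.5%), 6793 were under 0.5 on the log2 scale. Where differences between the labelled genotypes were counted as spread, 4006 were called instead of 9668. Without regard to size, 2226 (9.79%) were called higher with all arrays at 3 h above all arrays at 0 h, and 2823 (12.4%) were called lower with all below. At least 2-fold higher were 613 (2.69%), and at least 2-fold lower were 262 (1.15%). This absence of overlap needs no genotype label. It held for 552 of the 613 (2.43% of all tested) and for 257 of the 262 (1.13%). The distance between the nearest arrays of the 2 times is called the gap below, and it had a median of 0.83 log2 units in the 552 and of 0.84 in the 257. The median log2 level at 0 h was 6.89 for the 552, 8.35 for the 257 and 6.39 for all probe sets.

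Replicate arrays correlated with r from 0.997 to 0.999 across probe sets, and the 3′ minus 5′ log2 signal of the RNA integrity control GAPDH was 0.73 ± 0.08 at 3 h and 0.82 ± 0.14 at 0 h (SD, n = 4). For the actin control it was 0.54 ± 0.06 at 3 h and 0.44 ± 0.09 at 0 h, a difference in the other direction. The leaf markers RCA and LHCB4.1, 2 of 10 listed, had mean levels of 13.94 and 13.83 at 3 h and of 13.92 and 13.89 at 0 h, close to the highest value on the arrays (14.46). Markers of root were also present and moved with the time and the label, as described further below.

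Only 238 of the 552 probe sets that rose and 136 of the 257 that fell are paired with 1 gene in the platform annotation. The largest gaps belong mostly to genes that the gene table used here names by locus tag alone, although other sources may name them. AT4G36010 had the largest gap among the rises with 1 gene for the probe set. Its log2 levels were 11.00 and 11.12 on the arrays labelled WT and 11.27 and 11.25 on those labelled rdm4 at 3 h, against 7.48 and 7.66 (WT) and 7.77 and 7.87 (rdm4) at 0 h. The mean change was 3.47 ± 0.06 (SE; limma adjusted p = 4.62e-13), an 11.1-fold rise, and it was alike under both labels, at 3.49 in WT and 3.44 in rdm4. AT3G55580 was the most changed of these genes, with 8.45 and 8.45 (WT) and 9.54 and 9.44 (rdm4) at 3 h, against 5.49 and 5.14 (WT) and 4.81 and 4.86 (rdm4) at 0 h. It rose 14.9-fold (3.90 ± 0.07, adjusted p = 1.02e-12). Next by gap came AT1G70420 (8.04-fold), AT5G65300 (8.97-fold) and AT5G47060 (5.29-fold). AT5G47060 showed little spread between labels, with 10.53, 10.50, 10.34 and 10.33 on the 4 arrays at 3 h and 8.07, 7.89, 8.07 and 8.06 on the 4 at 0 h. The 15 rises with the largest gaps lay between 4.75-fold and 14.9-fold, and their gaps between 1.80 and 3.12.

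Falls of the same kind reached as far. AT3G26510 had 5.51 and 5.56 (WT) and 5.21 and 5.20 (rdm4) at 3 h, against 9.75 and 9.77 (WT) and 9.01 and 8.78 (rdm4) at 0 h. No array at 3 h came within 3.22 log2 units of an array at 0 h, and the gene fell 15.5-fold (-3.95 ± 0.07, adjusted p = 7.48e-13). AT1G23390 fell 12.9-fold, to 7.12 and 6.94 (WT) and 7.76 and 7.53 (rdm4) at 3 h, against 11.46 and 11.37 (WT) and 10.62 and 10.66 (rdm4) at 0 h. AT5G19120 fell 12.7-fold, by the same amount under both labels (-3.67 in WT and -3.66 in rdm4), and AT3G23880 fell 12.9-fold. The other 11 falls with the largest gaps lay between 3.43-fold and 6.70-fold, and AT3G19850 among them ended at 4.58 at 3 h, under the 4.70 below which the dimmest 30% of probe sets lie, so that the size of its fall is uncertain.

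**Figure D1:**
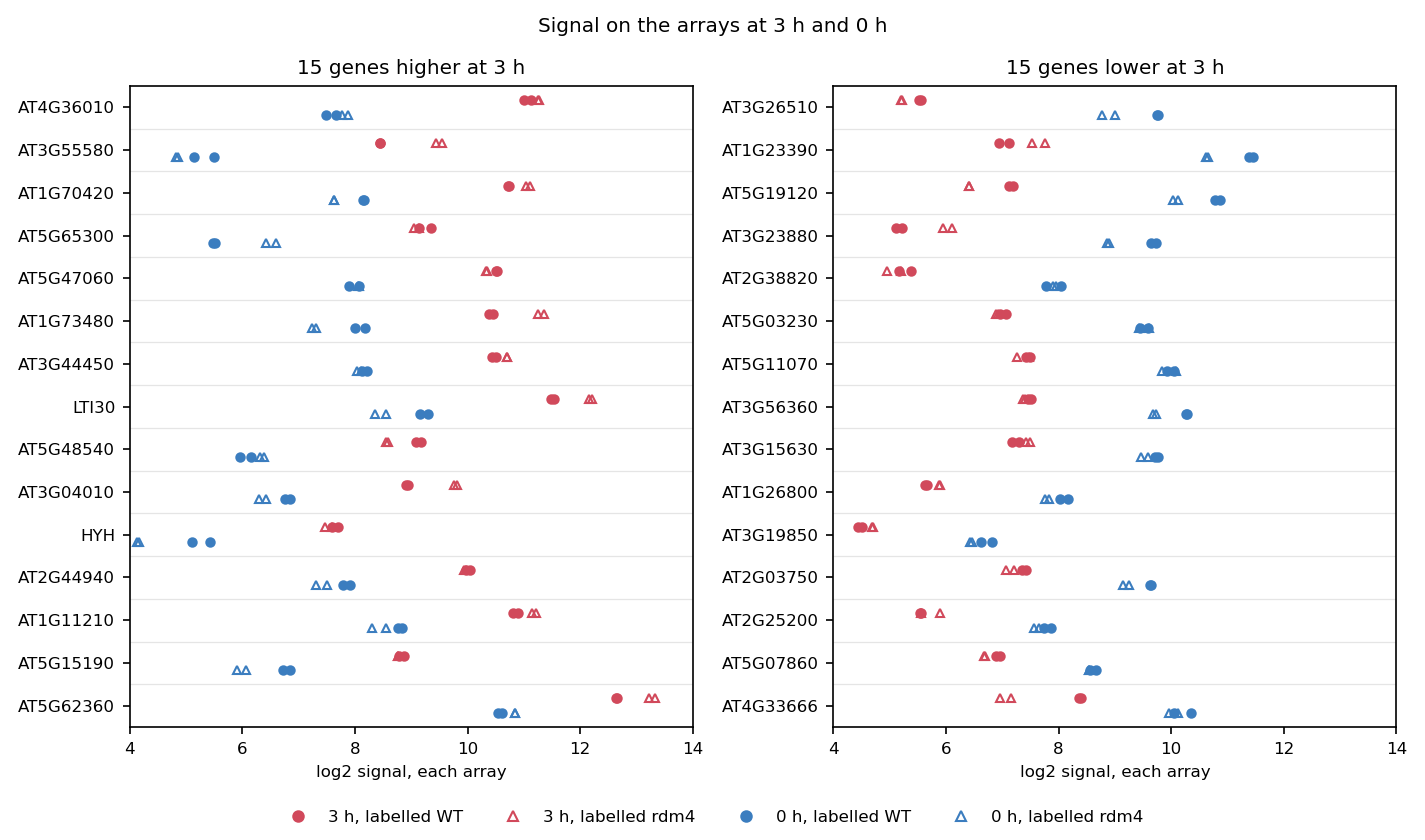
Log2 signal (x axis) on each of the 4 arrays at 3 h (red, upper of each pair of rows) and the 4 at 0 h (blue, lower) for the 15 rises and the 15 falls with the largest gaps and 1 gene for the probe set, ranked by gap. Filled circles are arrays labelled WT and open triangles arrays labelled rdm4; in every row the red and blue points stay apart, by 1.80 to 3.12 for the rises and 1.56 to 3.22 for the falls.

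Among the cold-regulated effector genes, all 6 measured of 21 listed were called higher, against 19.0% of all probe sets, and their median change was 1.31 against -0.03 for all probe sets. In 4 of the 6 the arrays did not overlap, against 9.79% of all probe sets called higher without overlap. LTI30 (AT3G50970), a dehydrin, led them. Its log2 levels were 11.53 and 11.48 (WT) and 12.21 and 12.16 (rdm4) at 3 h, against 9.30 and 9.15 (WT) and 8.36 and 8.55 (rdm4) at 0 h. Every array at 3 h exceeded every array at 0 h by at least 2.18, and the mean rise was 8.04-fold (3.01 ± 0.06, adjusted p = 1.33e-12). AT4G33980, a listed gene that the gene table used here names by locus tag alone, rose 3.43-fold. Its levels were 10.91 and 10.84 (WT) and 11.92 and 11.91 (rdm4) at 3 h, against 9.75 and 9.88 (WT) and 9.44 and 9.40 (rdm4) at 0 h. COR47 (AT1G20440), another dehydrin, was bright already at 0 h. Its levels were 12.64 and 12.61 (WT) and 13.21 and 13.08 (rdm4) at 3 h and 11.31, 11.25, 11.40 and 11.45 at 0 h, a 2.89-fold rise (1.53 ± 0.05, adjusted p = 1.07e-10).

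The remaining 3 COR genes rose on average, but their arrays of the 2 times came together or crossed. COR15A (AT2G42540), which encodes a protein that protects chloroplast membranes, had 12.07 and 12.22 (WT) and 13.43 and 13.39 (rdm4) at 3 h, against 12.46 and 12.30 (WT) and 10.96 and 11.08 (rdm4) at 0 h. The 2 arrays labelled WT at 3 h lie under those labelled WT at 0 h, so the mean rise of 1.08 ± 0.06 (adjusted p = 7.34e-09) rests on the arrays labelled rdm4. With the 3 h labels exchanged the rise was nearly equal in both pairs, at 1.03 for the 3 h arrays labelled rdm4 over the 0 h arrays labelled WT and 1.13 for the other pair. COR15B (AT2G42530), its close relative, had 12.29 and 12.21 (WT) and 13.28 and 13.20 (rdm4) at 3 h, against 12.19 and 12.11 (WT) and 11.35 and 11.34 (rdm4) at 0 h, with a gap of 0.02. COR27 (AT5G42900) had 10.90 and 10.96 (WT) and 12.05 and 11.95 (rdm4) at 3 h, against 10.95 and 10.99 (WT) and 10.58 and 10.70 (rdm4) at 0 h, a mean rise of 0.66 ± 0.05. Where differences between the labelled genotypes were counted as spread, COR15A (adjusted p = 0.150) and COR15B (0.0602) were no longer called. COR27 changed by -0.04 under the label WT and 1.36 under the label rdm4, and its result in that fit is not given here. The probe sets of COR15A and COR15B may each read transcripts of the other copy, which was not tested.

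Of 3 measured genes on the list of other early stress transcription factors, STZ was called higher and ORA47 and WRKY53 lower, against 19.0% and 23.5% of all probe sets. STZ (AT1G27730), a zinc finger repressor induced by cold, salt and drought, had 9.98 and 10.04 (WT) and 9.51 and 9.52 (rdm4) at 3 h, against 9.16 and 9.11 (WT) and 7.08 and 7.10 (rdm4) at 0 h. Its 3 h arrays lie between 9.51 and 10.04, while its 0 h arrays fall into the 2 labels, and the mean rise was 3.14-fold (1.65 ± 0.05, adjusted p = 3.55e-11; 0.0578 without a genotype term). ORA47 (AT1G74930), an AP2/ERF factor that activates jasmonate synthesis genes, had 5.06 and 5.03 (WT) and 5.28 and 5.12 (rdm4) at 3 h, against 7.91 and 7.50 (WT) and 5.66 and 5.66 (rdm4) at 0 h, a mean change of -1.56 ± 0.08 that rests largely on the high arrays labelled WT at 0 h (adjusted p = 8.80e-09; 0.0680 without a genotype term). WRKY53, a factor linked to leaf senescence, was at 4.19 and 4.21 (WT) and 4.07 and 4.26 (rdm4) at 3 h, against 4.91 and 4.91 (WT) and 3.94 and 3.87 (rdm4) at 0 h. All its arrays were among the dimmest 30% except those labelled WT at 0 h, which were close to it. Its mean change of -0.22 ± 0.08 was called (adjusted p = 0.0435) but lost the call without any 1 of 7 of the 8 arrays (adjusted p 0.0659 to 0.157) and without a genotype term (0.632).

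Other factors outside the lists were read from their symbols after their values had been seen. TINY2 (AT5G11590), an AP2/ERF factor of the DREB subfamily and thus a relative of the CBF proteins, rose 4.22-fold with a gap of 1.26. Its levels were 8.33 and 8.33 (WT) and 7.44 and 7.57 (rdm4) at 3 h and 6.18 and 5.90 (WT) and 5.55 and 5.72 (rdm4) at 0 h. BZIP34 (AT2G42380), a basic leucine zipper protein, had 7.12 and 6.96 (WT) and 7.29 and 7.38 (rdm4) at 3 h, against 5.75 and 5.65 (WT) and 5.18 and 5.28 (rdm4) at 0 h, a 3.30-fold rise with a gap of 1.21. Smaller rises without overlap were those of bZIP44 (1.04 ± 0.06), bHLH34 (1.09 ± 0.07) and WRKY42 (1.45 ± 0.06), of which WRKY42 started among the dimmest 30% at 3.90. Of 14 bZIP genes measured, 6 were called higher and 3 lower. Of 6 WRKY genes, 2 were called higher and 2 lower. The shares over all probe sets were 19.0% higher and 23.5% lower. MYBC1 (AT2G40970), a MYB-related repressor linked to freezing tolerance, fell 2.02-fold, with 6.51, 6.52, 6.24 and 6.35 at 3 h and 7.48, 7.33, 7.49 and 7.37 at 0 h. PYE (AT3G47640), a bHLH regulator of the response to iron deficiency, fell 2.16-fold. Of regulators upstream of the CBF genes, EIN3 (-0.14 ± 0.05) and SIZ1 (-0.19 ± 0.05) were the 2 measured and were called lower with overlapping arrays. Both calls were lost without a genotype term (adjusted p = 0.541 for EIN3 and 0.197 for SIZ1). EIN3 also lost its call without any 1 of 6 of the 8 arrays (adjusted p 0.0641 to 0.127), and a second, dim probe set of SIZ1 showed -0.05 ± 0.11 (adjusted p = 0.727). The clock gene GI (AT1G22770) was the 1 clock gene measured of 25 listed, at 9.98 and 9.96 (WT) and 10.91 and 10.93 (rdm4) at 3 h, against 9.68 and 9.61 (WT) and 9.40 and 9.44 (rdm4) at 0 h, a rise of 0.92 ± 0.05.

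HYH (AT3G17609), a bZIP factor that acts beside HY5 in the light response and in the induction of flavonoid genes, rose 7.37-fold. At 3 h its 4 arrays agreed closely, at 7.59 and 7.69 (WT) and 7.59 and 7.46 (rdm4), whereas at 0 h they were at 5.42 and 5.11 (WT) and 4.13 and 4.17 (rdm4), the last 2 among the dimmest 30% of probe sets, so that the size of the rise under that label is uncertain. The mean change was 2.88 ± 0.07 (adjusted p = 8.97e-12). UGT78D2 (AT5G17050), the enzyme that adds glucose to position 3 of flavonols and anthocyanidins, had 9.48 and 9.49 (WT) and 9.70 and 9.64 (rdm4) at 3 h, against 8.27 and 8.17 (WT) and 7.66 and 7.81 (rdm4) at 0 h, a 3.03-fold rise with a gap of 1.21. CHIL (AT5G05270), a chalcone isomerase-like protein that enhances flavonoid production, rose by 0.93 ± 0.07 with a gap of 0.14. DFR (AT5G42800), the dihydroflavonol reductase of anthocyanin synthesis, was at 7.68 and 7.80 (WT) and 6.78 and 6.47 (rdm4) at 3 h, against 7.32 and 7.39 (WT) and 8.21 and 8.13 (rdm4) at 0 h, a mean change of -0.58 ± 0.07 from arrays that overlap (adjusted p = 3.26e-05; 0.310 without a genotype term). UF3GT, an anthocyanin glycosyltransferase, changed by -0.42 ± 0.05, also with overlap, from 0.14 in WT and -0.99 in rdm4. Its result without a genotype term is not given here. Of the 5 measured genes of this list, 3 were called higher and 2 lower, against 19.0% and 23.5% of all probe sets.

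**Figure D2:**
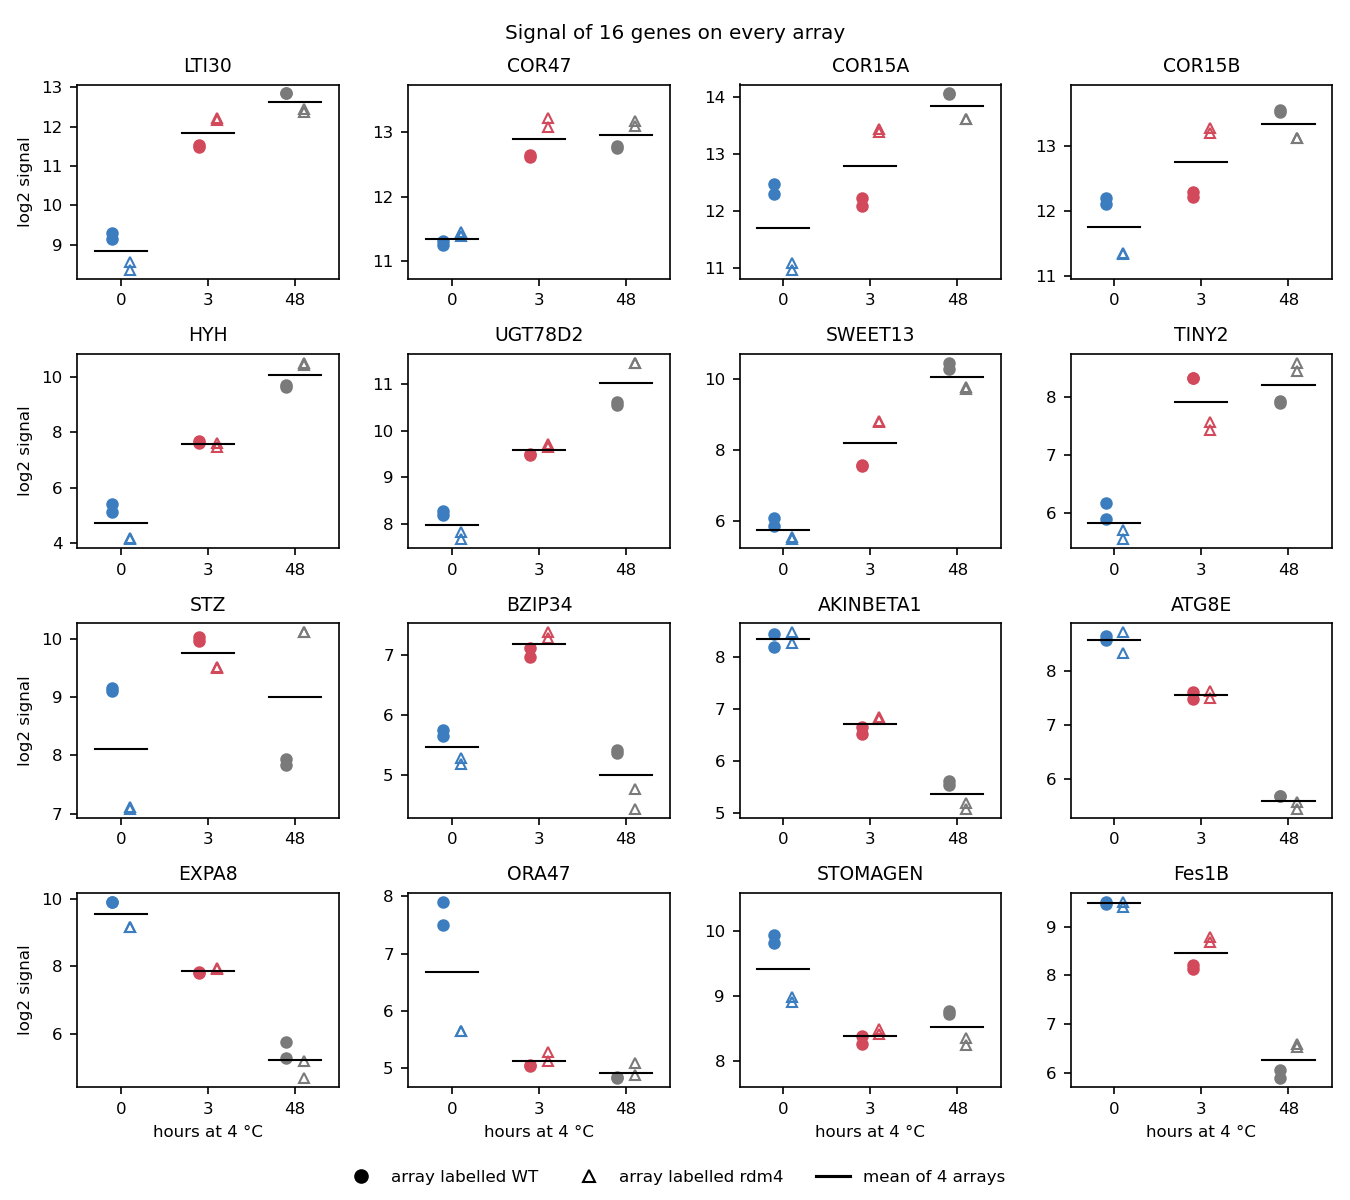
Log2 signal (y axis) on every array for 16 genes at 0, 3 and 48 h at 4 °C (x axis), with filled circles for arrays labelled WT, open triangles for arrays labelled rdm4 and a bar at the mean of the 4 arrays of a time. LTI30, HYH and SWEET13 are higher at 3 h than at 0 h and higher again at 48 h, BZIP34 is highest at 3 h, and COR15A is higher under the label WT at 0 h and 48 h but under the label rdm4 at 3 h.

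SWEET13 (AT5G50800), a sucrose efflux transporter, had 7.55 and 7.56 (WT) and 8.78 and 8.82 (rdm4) at 3 h, against 6.08 and 5.85 (WT) and 5.47 and 5.55 (rdm4) at 0 h. The rise was 5.42-fold (2.44 ± 0.06, adjusted p = 1.42e-11) with a gap of 1.46. Of 14 SWEET genes measured, 7 were called higher and 0 lower, against 19.0% and 23.5% of all probe sets, but only SWEET13, SWEET2 (0.66 ± 0.06) and SWEET17 (0.61 ± 0.07), which carries fructose across the vacuolar membrane, did so without overlap, against 9.79% of all probe sets. SWEET1 and SWEET4 went opposite ways in the labelled genotypes, at 1.70 in WT and -1.33 in rdm4 for SWEET1, and at -0.81 in WT and 1.49 in rdm4 for SWEET4. AKINBETA1 (AT5G21170), a beta subunit of the energy-sensing kinase SnRK1, fell 3.13-fold. Its levels were 6.66 and 6.51 (WT) and 6.80 and 6.84 (rdm4) at 3 h, against 8.45 and 8.19 (WT) and 8.27 and 8.48 (rdm4) at 0 h. The fall of 1.65 ± 0.07 on the log2 scale (adjusted p = 1.30e-09) was -1.74 in WT and -1.55 in rdm4, and the 2 responses did not pass the test of their difference (adjusted p = 0.343). Of starch genes, DPE1, a plastid glucanotransferase, fell by 0.72 ± 0.05 without overlap and PWD, a starch phosphorylating enzyme, was called lower (-0.53 ± 0.05) with overlap (0.224 without a genotype term), while ATSPS4F, a sucrose phosphate synthase, was at 0.03 ± 0.05 and not called.

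Most measured genes of autophagy, the pathway that carries cell contents to the vacuole for breakdown, were lower. Most of them belong to 1 family of similar genes, ATG8, so they do not stand for the pathway as a whole. Of 11 measured genes, from 17 listed, 10 were called lower, 1 was not called and 0 were called higher, against 23.5% of all probe sets called lower. The median change was -0.31. In 5 of the 10 the arrays did not overlap, against 12.4% of all probe sets called lower without overlap. ATG8E (AT2G45170), one of the ATG8 proteins that coat the forming autophagosome, had 7.60 and 7.47 (WT) and 7.62 and 7.50 (rdm4) at 3 h, against 8.57 and 8.64 (WT) and 8.33 and 8.70 (rdm4) at 0 h, a 2.02-fold fall (-1.01 ± 0.08, adjusted p = 2.75e-07). ATG8F was nearly the same on all arrays of a time, with 10.29, 10.30, 10.31 and 10.36 at 3 h and 10.82, 10.75, 10.83 and 10.93 at 0 h, and it fell by 0.52 ± 0.05. ATG8C fell by 0.49 ± 0.09, ATG8D by 0.47 ± 0.06 and AT3G59950 by 0.27 ± 0.05. The called falls of ATG8B, ATG8G, ATG8H, APG8H and ATG3 came from overlapping arrays. Of these 5, all but ATG3 lacked a fall under the label WT, where ATG8B changed by 0.23, ATG8G by 0.01, ATG8H by 0.01 and APG8H by 0.06. APG8A was at 0.10 ± 0.07 and not called. ATG8 transcripts resemble each other, and reading of one by the probe set of another was not tested.

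Growth and cell wall genes divided. EXPA8 (AT2G40610), an expansin that loosens cell walls, fell 3.18-fold, with 7.81 and 7.81 (WT) and 7.92 and 7.93 (rdm4) at 3 h, against 9.91 and 9.91 (WT) and 9.16 and 9.16 (rdm4) at 0 h (-1.67 ± 0.11, adjusted p = 5.98e-08). EXLA2 (AT4G38400), an expansin-like protein, rose 2.37-fold. Its levels lay between 7.13 and 7.20 on the 4 arrays at 3 h and between 5.63 and 6.20 on the 4 at 0 h. XTH20 (AT5G48070), a xyloglucan endotransglucosylase/hydrolase of the cell wall, rose by 1.44 ± 0.06 with a gap of 0.67, from a level (3.98 at 0 h) among the dimmest 30%. Of 9 XTH genes measured 5 were called higher and 0 lower, 3 of the 5 without overlap. Of 10 EXPA genes 2 were called higher (0 without overlap) and 3 lower (1 without overlap). Of 22 TBL genes, whose products acetylate wall polymers, 7 were called higher (4 without overlap) and 2 lower (1 without overlap). Over all probe sets the shares were 19.0% higher and 23.5% lower, and 9.79% and 12.4% without overlap. The arrays of XTH18 and XTH19 overlapped, and their values by label are given further below. The 2 EXPA genes called higher were EXPA7 and EXPA18, which are also root markers. TBL26 (AT4G01080) was the only TBL gene to change 2-fold, at 1.71 ± 0.06. On the list of auxin and cell expansion genes, 2 of 7 were called higher and 2 lower, against the same 19.0% and 23.5%. Of these, EXLA1 (3.64 in WT and -0.06 in rdm4) and EXPA4 (0.83 in WT and -1.61 in rdm4) had overlapping arrays. Both calls were lost without a genotype term (adjusted p = 0.0941 for EXLA1 and 0.616 for EXPA4). WES1 (AT4G27260), an enzyme that joins auxin and salicylic acid to amino acids, fell 2.02-fold, with 6.68 and 6.68 (WT) and 6.54 and 6.51 (rdm4) at 3 h, against 7.46 and 7.34 (WT) and 7.78 and 7.88 (rdm4) at 0 h. STOMAGEN (AT4G12970), a secreted peptide of leaf mesophyll that promotes stomata, had 8.39 and 8.26 (WT) and 8.48 and 8.41 (rdm4) at 3 h, against 9.82 and 9.94 (WT) and 8.91 and 8.98 (rdm4) at 0 h, a fall of 1.03 ± 0.05. SIM (AT5G04470), a cyclin-dependent kinase inhibitor that promotes endoreplication, fell 2.00-fold, and BRH1 (AT3G61460), a RING finger gene responsive to brassinosteroid, fell 2.00-fold.

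GSTU26 (AT1G17190), a tau class glutathione transferase, had 9.84 and 9.85 (WT) and 10.18 and 10.07 (rdm4) at 3 h, against 8.51 and 8.55 (WT) and 8.01 and 8.38 (rdm4) at 0 h, a 3.08-fold rise with a gap of 1.29. It was the only 1 of 11 GSTU genes to reach 2-fold, against 2.69% higher and 1.15% lower of all probe sets. In the mean, 5 of the 11 were called higher (3 without overlap) and GSTU18 lower (-0.62 ± 0.05, without overlap). Among all probe sets the shares were 19.0% higher and 23.5% lower, and 9.79% and 12.4% without overlap. As labelled, 2 of the 11 were called higher in both genotypes and 3 in opposite directions. Such calls were made for 1585 and 2740 of all 22746 probe sets. UGT74D1 (AT2G31750), a glucosyltransferase that acts on auxins, rose 2.83-fold, to 8.78 and 8.86 (WT) and 8.47 and 8.51 (rdm4) at 3 h, against 7.04 and 6.90 (WT) and 7.33 and 7.35 (rdm4) at 0 h. Its relative UGT85A5 (AT1G22370) fell 3.00-fold, and of 47 UGT genes measured 19 were called higher and 10 lower, against 19.0% and 23.5% of all probe sets. VTC4 (AT3G02870), a phosphatase of ascorbate synthesis, rose 2.19-fold, with 10.77 and 10.69 (WT) and 10.98 and 10.99 (rdm4) at 3 h, against 9.37 and 9.48 (WT) and 10.03 and 10.03 (rdm4) at 0 h. On the list of antioxidant enzymes GR1 (0.78 ± 0.05) and GR (0.32 ± 0.05), both glutathione reductases, rose without overlap, and the copper chaperone CCS was at -0.10 ± 0.06 and not called. NDB2 (AT4G05020), a mitochondrial NAD(P)H dehydrogenase, MSRB9 (AT4G21850), a methionine sulfoxide reductase, and PDC2 (AT5G54960), a pyruvate decarboxylase, rose 2.01-fold, 2.31-fold and 2.06-fold, with gaps of 0.22, 0.22 and 0.39. OPCL1 (AT1G20510), a CoA ligase of jasmonate synthesis, rose 2.31-fold, with 9.45 and 9.43 (WT) and 9.35 and 9.24 (rdm4) at 3 h, against 8.16 and 8.42 (WT) and 8.07 and 7.98 (rdm4) at 0 h. The 3 measured genes of the jasmonate list were called higher in the mean, against 19.0% of all probe sets, JMT without overlap but among the dimmest 30% at both times (0.49 ± 0.11). PDF1.2 and PDF1.2b were called with overlap, from -0.56 and -3.09 under the label WT and 0.96 and 3.91 under the label rdm4. PDF1.2 lost its call without either of 2 arrays (adjusted p 0.0566 to 0.0567) and without a genotype term (0.742), and PDF1.2b lost it without a genotype term (0.880).

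Genes of signalling and protein turnover were also among the 32 symbol-named rises and 18 falls of at least 2-fold without overlap. WNK9 (AT5G28080), a WNK kinase, rose 3.10-fold, with 7.78 and 7.65 (WT) and 8.36 and 8.40 (rdm4) at 3 h, against 6.38 and 6.60 (WT) and 6.22 and 6.46 (rdm4) at 0 h. SD1-29 (AT1G61380), a lectin receptor kinase, rose 3.19-fold, and the tetraspanin TET3 (AT3G45600) 2.85-fold. ATL5 (AT3G62690), a RING finger protein of the ATL family, rose 2.93-fold with little spread between labels, at 8.23, 8.19, 8.05 and 8.10 at 3 h and 6.58, 6.63, 6.74 and 6.41 at 0 h. BETA-VPE (AT1G62710), a vacuolar processing enzyme, rose 2.19-fold. The plastid gene rps16 was called 3.09-fold higher, with 8.56 and 8.60 (WT) and 8.01 and 7.85 (rdm4) at 3 h, but its replicates at 0 h disagreed, with 6.01 and 7.37 (WT) and 7.19 and 5.94 (rdm4). Among the falls were Fes1B (AT3G53800), an exchange factor of Hsp70 chaperones, at 8.14 and 8.22 (WT) and 8.78 and 8.67 (rdm4) at 3 h, against 9.47 and 9.51 (WT) and 9.40 and 9.51 (rdm4) at 0 h, and HIS1-3 (AT2G18050), a drought-responsive linker histone, which fell 2.03-fold. The calmodulin-like gene CML30 fell 2.02-fold and LUL4, a RING-type ubiquitin ligase, 2.08-fold.

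For the lists that follow, 19.0% of all probe sets were called higher and 23.5% lower. Of 8 calcium sensor and touch genes, 3 were called higher and 1 lower, with a median of 0.07, and the 3 calls of CML38, AT5G39670 and CML23 were lost without a genotype term (adjusted p = 0.270, 0.121 and 0.304), while CML41 (0.33 ± 0.06) rose without overlap. Of 6 heat shock genes, AT5G37670 (-0.82 ± 0.10) fell without overlap to a level among the dimmest 30%, AT5G51440 was called lower with overlap (0.659 without a genotype term), and 4 were not called. AT5G51440 changed by 0.57 in WT and -1.07 in rdm4. Light harvesting and carbon fixation genes gave 1 higher, 1 lower and 2 not called of 4 measured, and the calls of LHCB4.2 and LHCB4.3 were lost without a genotype term (0.200 and 0.507). Of the gibberellin receptors, GID1B rose by 0.47 ± 0.07 without overlap, GID1A (-0.23 ± 0.06) was called lower and GID1C (0.18 ± 0.06) higher with overlap, and the last 2 were not called without a genotype term (0.194 and 0.619). GID1C changed in opposite directions under the 2 labels, by -0.25 in WT and 0.61 in rdm4. Of 6 ribosome biogenesis genes, 1 was called higher and 5 were not called in the mean, although those 5 changed in opposite directions under the 2 labels, as AT1G52930 did with 0.58 in WT and -0.65 in rdm4. The called gene, AT3G15460, had 1.00 in WT and -0.22 in rdm4 and lost its call without a genotype term (adjusted p = 0.293). SAG101, the 1 salicylic acid defence gene measured, was at 0.00 ± 0.06. Among 5 reference genes, PEX4 was higher by 0.36 ± 0.05, AT4G34270 was called lower (-0.12 ± 0.04, lost without any 1 of 6 of the 8 arrays, adjusted p 0.0636 to 0.120), and 3 were not called.

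**Figure D3:**
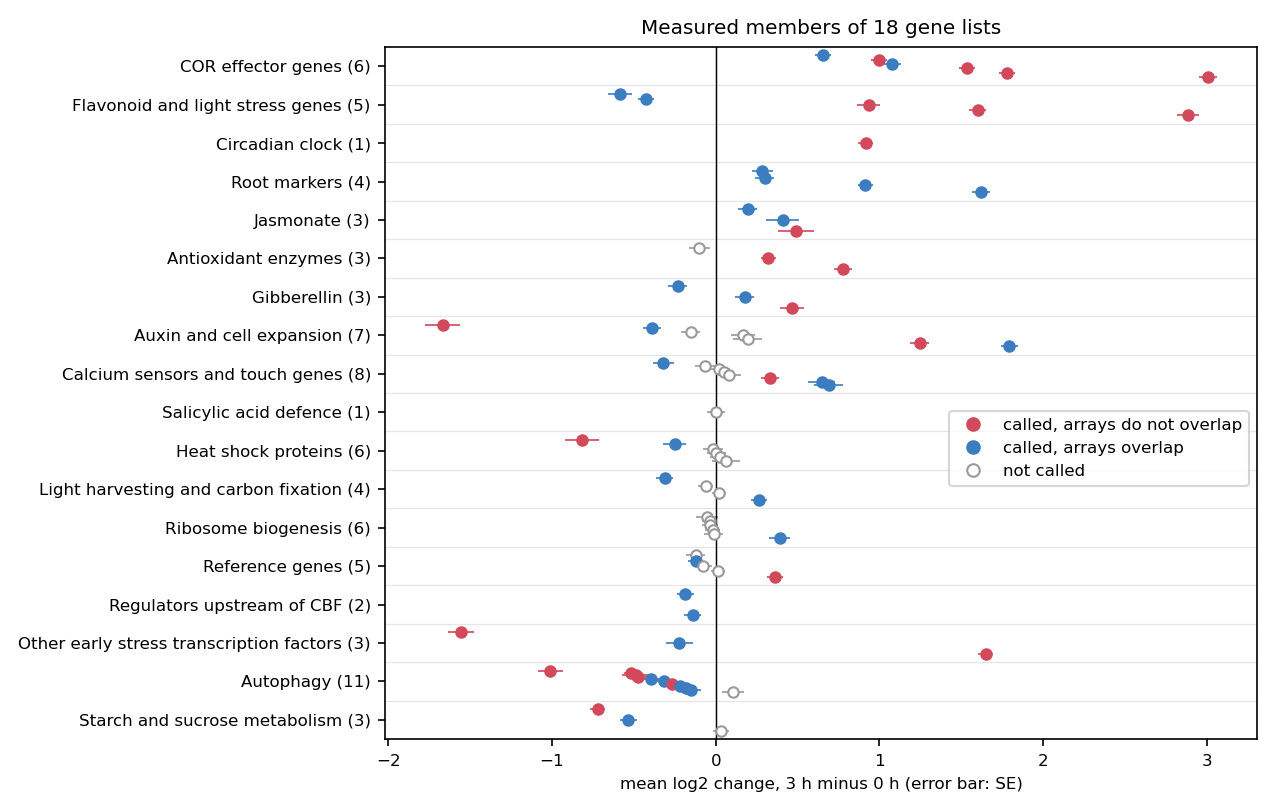
Mean log2 change at 3 h against 0 h with its SE (x axis) for each measured member of the 18 gene lists that hold at least 1 measured gene (rows, number of members in brackets, ordered by the median of the list). Red points were called and their arrays do not overlap, blue points were called with overlapping arrays, and open points were not called; all 6 COR genes lie above 0 and 10 of 11 autophagy genes were called below 0.

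A mean over genotypes can rest on 1 pair of groups. As labelled, 23.1% of all probe sets were called higher and 23.7% lower in WT, and 17.1% higher and 22.9% lower in rdm4. Of the 613 probe sets called at least 2-fold higher, the 61 whose arrays overlapped comprised 40 called higher under the label WT alone, 5 under the label rdm4 alone and 16 called in opposite directions. The 7 such genes with a symbol and a rise under the label WT were chosen after their values were seen, and since they rise under 1 label alone, exchange tends to even them out, so that they are given as values only. XTH19 (AT4G30290) had 9.81 and 9.77 (WT) and 6.90 and 7.12 (rdm4) at 3 h, against 4.44 and 4.74 (WT) and 6.93 and 7.09 (rdm4) at 0 h. Its arrays of the 2 times overlap, and its mean rise of 2.60 ± 0.08 combined 5.20 in WT with -0.00 in rdm4 as labelled. Once the labels of the 3 h arrays were exchanged, it was 2.41 for the 3 h arrays labelled rdm4 over the 0 h arrays labelled WT, and 2.78 for the other pair. EXLA1 behaved likewise, with 3.64 and -0.06 as labelled and 1.52 and 2.07 when exchanged, and its call was lost without a genotype term (adjusted p = 0.0941). OSM34, an osmotin-like protein, gave 2.90 and -0.25 as labelled and 1.65 and 1.00 when exchanged, and the chitinase gene ChiC gave 2.72 and 0.03 as labelled and 1.47 and 1.28 when exchanged. UGT73C1 gave 2.60 and 0.21 as labelled and 0.99 and 1.83 when exchanged. In PDF2.1, with 2.87 and 0.02 as labelled and 2.39 and 0.51 when exchanged, and in XTH18, with 3.26 and 0.10 as labelled and 0.48 and 2.88 when exchanged, the responses stayed uneven. Exchange made other genes less even. CHIL gave 0.89 and 0.97 as labelled and 0.20 and 1.67 when exchanged, STZ 0.88 and 2.42 as labelled and 0.38 and 2.92 when exchanged, and AT5G19120 -3.67 and -3.66 as labelled and -4.41 and -2.92 when exchanged.

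Root markers rested on the same arrays. All 4 measured of 15 listed were called higher in the mean, against 19.0% of all probe sets, and 0 without overlap, against 9.79%, with a median of 0.61. The log2 of their summed signal was 12.58 and 12.58 (WT) and 11.86 and 11.97 (rdm4) at 3 h, against 10.66 and 10.69 (WT) and 11.97 and 11.99 (rdm4) at 0 h. PYK10 (AT3G09260), a root beta-glucosidase, carried most of it, with 12.50 and 12.49 (WT) and 11.81 and 11.91 (rdm4) at 3 h, against 10.59 and 10.62 (WT) and 11.91 and 11.93 (rdm4) at 0 h. The peroxidase gene AT5G17820 had 1.62 ± 0.05 in the mean, from 3.28 in WT and -0.04 in rdm4. Without a genotype term all 4 lost the call, with adjusted p = 0.124 for PYK10, 0.0902 for AT5G17820, 0.187 for EXPA7 and 0.209 for EXPA18. Their part in the other results of this group was not tested.

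Over all probe sets, the 2 responses as labelled correlated with r = 0.26 and rho = 0.07, a description over probe sets of 2 responses that share no array. With the labels of the 3 h arrays exchanged, the 2 responses, which again share no array, correlated with r = 0.75 and rho = 0.61. As labelled, 3334 probe sets shared their called direction and 2740 (12% of all) were called in opposite directions. With the labels exchanged these were 4798 and 280. At least 2-fold higher in both pairs were 279 probe sets as labelled and 408 when exchanged, and at least 2-fold lower in both were 135 and 158. The mean response is the same in both cases, gene by gene.

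The genes with the largest opposite responses show the limit of a mean. M17 (AT2G41260) had 6.95 and 7.20 (WT) and 4.99 and 4.89 (rdm4) at 3 h, against 4.28 and 4.43 (WT) and 7.60 and 7.76 (rdm4) at 0 h, so that the mean was -0.01 ± 0.08 and not called. PDF1.2b (AT2G26020), a plant defensin induced by jasmonate, had 5.30 and 5.29 (WT) and 9.68 and 9.83 (rdm4) at 3 h, against 8.38 and 8.39 (WT) and 5.64 and 6.05 (rdm4) at 0 h. Its mean of 0.41 ± 0.10 was called (adjusted p = 0.00598; 0.880 without a genotype term) although no 2 groups of one time agree, and its probe set may read other defensin copies. AT1G17960 (0.52 ± 0.08), AT4G23680 (0.45 ± 0.05) and AT2G14650 (-0.05 ± 0.07) followed the same form as M17, higher at 3 h under the label WT and lower under the label rdm4.

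**Figure D4:**
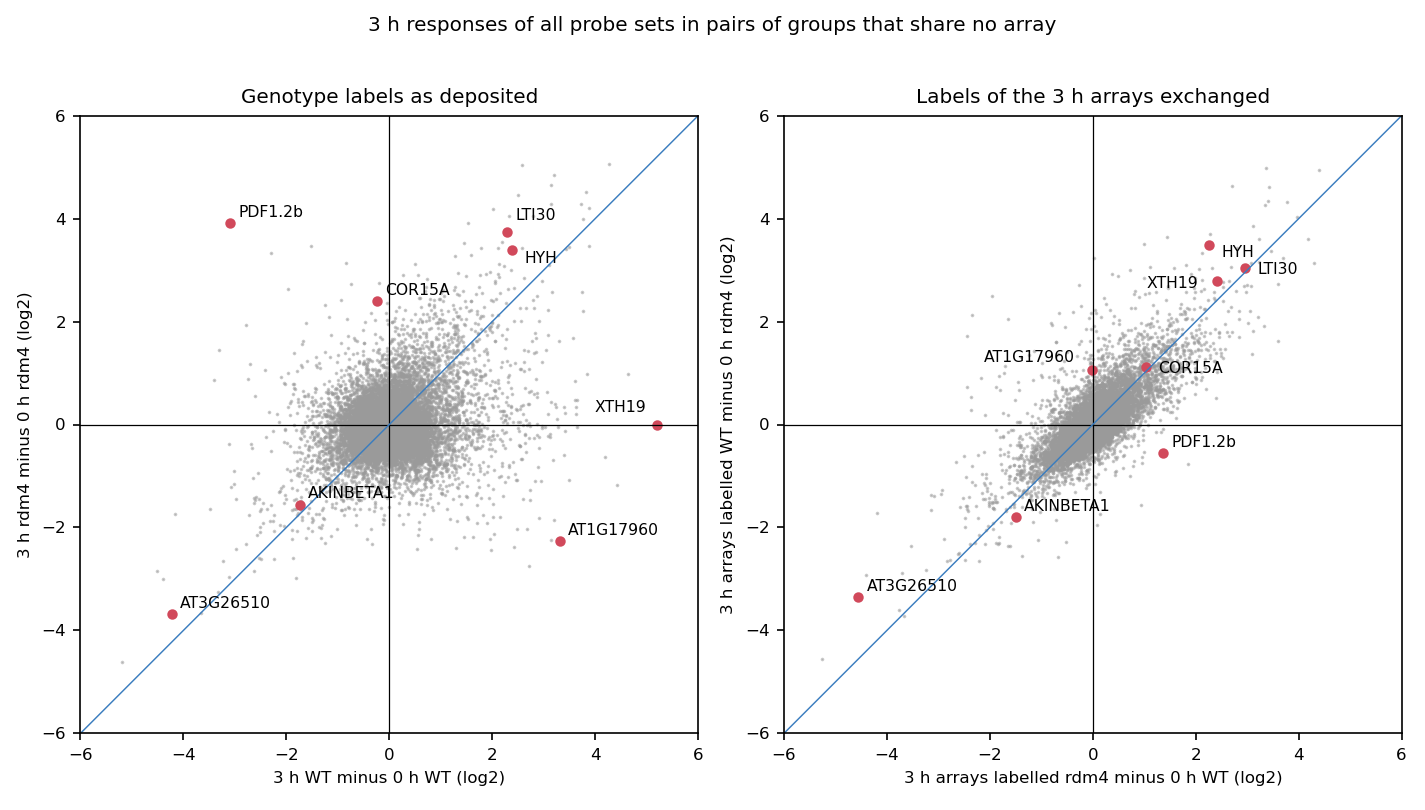
Log2 response at 3 h of all 22746 probe sets (grey) and 8 named genes (red) in 2 pairs of groups, with the line of equal responses in blue. On the left the labels are as deposited (x axis WT, y axis rdm4; r = 0.26), and on the right the labels of the 3 h arrays are exchanged (r = 0.75), where XTH19, COR15A and LTI30 lie nearer the line than on the left and AT3G26510 lies farther from it.

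The 48 h arrays show how the early genes stood later in the cold. Between 48 h and 3 h, 5731 probe sets were higher at 48 h (25.2%) and 6048 lower (26.6%), together 51.8%. At least 2-fold higher were 3.32% and at least 2-fold lower 3.25%. Both comparisons use the 3 h arrays, and the genes were chosen for their level at 3 h, so the counts that follow are descriptive. Of the 552 probe sets that rose at 3 h, 176 were higher at 48 h than at 3 h, 312 lower and 64 not called. Of the 257 that fell, 52 were higher at 48 h than at 3 h, 164 lower and 41 not called. Among the 15 rises with the largest gaps, 10 were lower at 48 h than at 3 h, 7 of them at least 2-fold.

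Some early rises were smaller or absent at 48 h. By their nominal times the 48 h and 0 h plants share a time of day that the 3 h plants do not. A brief response to chilling therefore cannot be told apart from a daily rhythm here. AT1G70420 was at 7.87 and 7.86 (WT) and 7.61 and 7.89 (rdm4) at 48 h, against 10.71 and 10.74 (WT) and 11.03 and 11.10 (rdm4) at 3 h, a difference of -3.09 ± 0.06 (adjusted p = 1.2e-12), and its 0 h arrays had been between 7.63 and 8.16. AT5G62360 behaved alike, at 10.58 and 10.69 (WT) and 10.79 and 10.80 (rdm4) at 48 h, with -2.25 ± 0.05 between 48 h and 3 h and a mean of 10.71 at 0 h. BZIP34 was at 5.38 and 5.42 (WT) and 4.44 and 4.76 (rdm4) at 48 h, with -2.19 ± 0.07 between 48 h and 3 h, and for AT5G65300 the difference was -2.60 ± 0.06. AT4G33980 of the COR list differed by -2.16 ± 0.05, with a mean of 9.24 at 48 h.

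Other rises went on. HYH was higher at 48 h than at 3 h by 2.48 ± 0.07, at 9.65 and 9.71 (WT) and 10.41 and 10.51 (rdm4). SWEET13 was higher by 1.88 ± 0.06, UGT78D2 by 1.44 ± 0.05, BETA-VPE by 1.40 ± 0.06, NDB2 by 1.36 ± 0.07, COR15A by 1.05 ± 0.06 and LTI30 by 0.78 ± 0.06. CHIL was higher by 2.83 ± 0.07. DFR, called lower at 3 h than at 0 h, was higher at 48 h than at 3 h by 1.59 ± 0.07. COR47 (0.06 ± 0.05) and GI (0.07 ± 0.05) were not called between 48 h and 3 h.

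Falls also deepened in part. The log2 difference between 48 h and 3 h was -2.65 ± 0.11 for EXPA8, -2.32 ± 0.06 for HIS1-3, -2.18 ± 0.06 for Fes1B, -1.94 ± 0.08 for ATG8E, -1.64 ± 0.05 for ATG8F and -1.35 ± 0.07 for AKINBETA1. ATG8E was at 5.69 and 5.70 (WT) and 5.46 and 5.59 (rdm4) at 48 h, all under its lowest array at 3 h. Of the 18 symbol-named falls, 11 were lower at 48 h, 2 were higher and 5 were not called. The 2 that were higher were PYE (1.08 ± 0.08) and BRH1 (0.42 ± 0.05). STOMAGEN (0.13 ± 0.05) and SIM (0.03 ± 0.09) were not called.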

How the data were processed

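Deposited log2 values of Affymetrix ATH1 arrays were used without further normalization; that they are on a log2 scale was found from their range, and the summarisation and normalization by the authors are not given in the sources used here. Groups and replicates were taken from the sample titles. Of 22810 probe sets, 64 controls were left out. The platform annotation gave 1 gene for 13513 probe sets, several for 503 and none for 8730; of 13355 genes, 13286 matched a RefSeq gene table (TAIR10.1), and 11798 have a locus tag only. For a gene with several probe sets the brightest stood for it.

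limma 3.58.1 (R 4.3.3) fitted 6 group means over 12 arrays (lmFit, eBayes, 6 residual and 5.98 prior degrees of freedom), with Benjamini-Hochberg adjustment over all 22746 probe sets. A call is an adjusted p under 0.05. A check of the fit on simulated data used the same time effect in both genotypes. It therefore says nothing of responses that differ between the labels. The number of arrays limits the precision, and the 2 replicates of a group came from different growth chambers, per the labels' protocols. Replicate numbers were not used to pair samples across groups in the main fit. Deviations from the group mean correlated at -0.15 to 0.27 between groups, with the highest value between the rdm4 groups at 0 h and 48 h. A fit with replicate number as a block is given below.

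Named were the 15 rises and 15 falls with the largest gaps, up to 4 called and 2 uncalled members of each list, COR15A, COR15B and GI, and the 5 genes with the largest opposite responses. Genes with a symbol that changed at least 2-fold without overlap, families sharing a symbol stem, and the 7 symbol-named genes called at least 2-fold higher that rose under the label WT alone, were added after their values were seen. The members and the 23 lists, with 406 genes of which 81 were measured, were chosen with earlier results of these data known. Promoter sequences and the motif search planned on them were not used here. Alternatives were other scaling, filtering, variance models and arrays in the fit, and, after seeing the data, each label alone and exchanged 3 h labels.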

Additional observations from a re-analysis of the deposited data

Results flagged for a closer look

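Responses at 3 h differed between the labelled genotypes (an interaction term in limma, adjusted p under 0.05) for 9826 of 22746 probe sets. The same held for 98 of the 137 genes named by rule or symbol, some of which were chosen for opposite responses. Among these 137 genes the largest such differences belong to the 5 genes named for their opposite responses, so the ranking follows from that choice. Given as the rdm4 response minus the WT response, they were 7.0 for PDF1.2b, -5.58 for AT1G17960, -5.47 for M17, -5.39 for AT4G23680 and -4.17 for AT2G14650. All of these differences depend on the genotype labels of the 3 h arrays.

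A single array stood apart from the other 3 of its time in 6 cases, by Dixon's criterion on 4 arrays, which flags about 1 group in 20 by chance. These were a high array at 3 h for AT2G25200 (5.89), BETA-VPE (8.15) and EXLA2 (7.20), a high array at 0 h for AT5G07860 (8.67), and a low array at 0 h for AT5G47060 (7.89) and PEX4 (9.37).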

How the results depend on the processing

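Median centring, repeated quantile normalization, omission of the dimmest 30%, trended and robust variance, the 8 arrays alone and the replicate block (9727 called) kept each count of calls within 1.5 times the value reported. With no genotype term 4006 probe sets were called instead of 9668, since differences between labels then count as spread, but 532 and 251 were at least 2-fold higher and lower. Without 1 array, 8743 to 9152 were called, 605 to 616 were at least 2-fold higher and 247 to 279 lower, and without overlap 549 to 568 and 243 to 271. Alternatives added after seeing the data gave, in the arrays labelled WT alone, 1008 at least 2-fold higher and 581 lower, and in those labelled rdm4 alone 447 lower, also without overlap. Of 2046 values of 137 named genes under all settings but those added, 1978 kept their side of the threshold and direction, 62 lost the call, 29 of them for lack of a genotype term, 6 gained it and 0 reversed. The replicate block changed no call of a named gene. Background was not measured, so signal near the dimmest 30% limits the size of folds.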
